A study of Mus musculus with 28 samples.

Results

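A set of 10 genes of the bone morphogenetic protein (BMP) and activin pathways was followed by RNA sequencing in mouse fibroblasts during reprogramming and in induced pluripotent stem cells (iPSC): the ligand genes Bmp2, Bmp4 and Bmp6, the activin subunit gene Inhba, the antagonist genes Grem1 and Fst, the pseudoreceptor gene Bambi, and the target genes Id1, Id2 and Id3. Members were taken by symbol from the 54109 genes of the reprogramming table and the 54838 genes of the iPSC table, and all 10 were found in both. The study asked how blocking H3K9 methylation enzymes acts on reprogramming under different culture conditions. Of its 28 samples, 18 are RNA libraries used here, and 10 H3K9me2 profiles were not analysed here.

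All groups came from mouse embryonic fibroblasts (MEF) of E13.5 to E15.5 embryos. The labels describe them as carrying heterozygous Rosa26-rtTA and Oct4-GFP alleles, with either a heterozygous DOX-inducible OKSM allele or a homozygous inducible OKS allele, which hold the reprogramming factors; which library carried which allele was not given. Cells were grown in ESC medium over irradiated feeder cells, so each culture also held feeder RNA of unstated amount. All 12 reprogramming libraries received doxycycline at 1 µg/ml (DOX) to switch on the factors, in 4 groups of 3 libraries. The first group had DOX alone. Another had DOX and UNC, meaning UNC0638 at 1 µM, an inhibitor of the H3K9 methyltransferases G9a and GLP. The remaining groups had DOX and 3C without or with UNC, where 3C is the combination of L-ascorbic acid at 50 µg/ml, the GSK3 inhibitor CHIR99021 at 3 µM, and 250 nM of TGF-b RI Kinase Inhibitor II, which blocks the TGF-beta and activin type I receptor kinases. The 6 iPSC libraries came from reprogramming with DMSO or with UNC during the first 48 hours, 3 of each. The labels give no time of RNA collection for the reprogramming libraries.

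BMPs are secreted dimers that bind type I and type II receptor kinases, which phosphorylate SMAD1, SMAD5 and SMAD9; activins and nodal act in the same way through other receptors on SMAD2 and SMAD3. The ID genes are direct targets of the BMP-activated SMADs, and their proteins bind E proteins such as TCF3 and keep them and their tissue-specific partners off DNA. Gremlin 1, encoded by Grem1, traps BMP ligands outside the cell, follistatin, encoded by Fst, traps activins most tightly, and BAMBI resembles a type I receptor without the kinase. In fibroblast reprogramming, BMP signals are known to favour the early change from a mesenchymal to an epithelial state, and mouse pluripotent cells use BMP4 and ID proteins in self-renewal.

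In mm10, Bmp2 (ENSMUSG00000027358) lies on chromosome 2 at 133552159 to 133562896, Bmp4 (ENSMUSG00000021835) on chromosome 14 at 46383525 to 46390669, and Bmp6 (ENSMUSG00000039004) on chromosome 13 at 38345716 to 38500314. Inhba (ENSMUSG00000041324) lies on chromosome 13 at 16004256 to 16031609, Grem1 (ENSMUSG00000074934) on chromosome 2 at 113748675 to 113758648, and Fst (ENSMUSG00000021765) on chromosome 13 at 114452262 to 114458989. Bambi is ENSMUSG00000024232. Id1 (ENSMUSG00000042745) lies on chromosome 2 at 152736251 to 152737410, Id2 (ENSMUSG00000020644) on chromosome 12 at 25093799 to 25096092, and Id3 (ENSMUSG00000007872) on chromosome 4 at 136143822 to 136145392. Values are given per gene and library, so exons, introns and UTRs were not told apart.

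Id2 and Id3 moved together with 3C, and the 250 bases before their start sites are printed here to show what these 2 promoters hold. The sequences are those of RefSeq on GRCm38.p6, which has the coordinates of mm10: Id2 at chr12:25096093-25096342 on the minus strand and Id3 at chr4:136143572-136143821 on the plus strand, each written 5′ to 3′ along the gene. Capitals mark GGCGCC, a GC-rich element bound by BMP-activated SMADs, or the SMAD3 and SMAD4 words CAGACA and GTCTAGAC, each searched on both strands.
Id2 promoter: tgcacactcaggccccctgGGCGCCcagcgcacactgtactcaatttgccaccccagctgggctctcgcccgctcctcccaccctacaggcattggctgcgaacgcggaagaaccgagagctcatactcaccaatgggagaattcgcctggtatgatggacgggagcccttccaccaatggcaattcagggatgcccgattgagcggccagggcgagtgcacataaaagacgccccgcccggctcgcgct
Id3 promoter: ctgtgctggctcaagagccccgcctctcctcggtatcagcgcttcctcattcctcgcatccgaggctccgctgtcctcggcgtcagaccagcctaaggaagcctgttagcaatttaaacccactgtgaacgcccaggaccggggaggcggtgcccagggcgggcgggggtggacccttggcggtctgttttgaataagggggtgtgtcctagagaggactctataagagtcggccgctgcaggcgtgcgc
The Id2 stretch held 1 GGCGCC, its first base 231 bases before the start, and the Id3 stretch held none of the 3 words. GGCGCC was in 9.586% of 32851 mouse promoters of the same length, CAGACA in 17.13% and GTCTAGAC in 0.1674%. Both stretches had 62.8% G and C and 18 CpG, against medians of 52.4% and 6 over all promoters. RefSeq entries were at hand for 6 members, and among the other 4 of these Grem1 held 1 GGCGCC, 78 bases before its start. CAGACA and GTCTAGAC were in none of the 6. The promoter of Inhba was the poorest of the 6 in G and C (43.2%, 3 CpG) and held the TATAAA word 91 bases before the RefSeq start, as did 12.37% of all promoters. That start lies inside the span given above for Inhba, the stretch searched being chr13:16011601-16011850 on the plus strand. The promoter of Grem1 was the richest (72.0%, 24 CpG). The entries missing were those of Bmp2, Fst, Bambi and Id1.

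Reprogramming levels are in normalised counts, reads divided by 1 factor per library, and iPSC levels in CPM, a gene's reads per 1e+06 counted. Depth, in units of 1e+06 reads in genes, ran from 10.62 to 20.21 over the reprogramming libraries and from 21.59 to 25.41 over the iPSC. Of the 10 pluripotency markers only 2 passed the filter on low values in the reprogramming libraries, where Nanog stood at 2.32 to 8.93 normalised counts, while in the iPSC Nanog stood at 426 to 487 CPM. The 10 fibroblast markers were all above 0 in every reprogramming library. A library of DOX with 3C (replicate 1) carried an excess of erythroid transcripts, with a summed level of 2078 normalised counts for 6 markers; without that library the same number of members, 7, passed the test for 3C without UNC. Nothing in the labels says that replicates were separate cultures or embryos, so p-values measure the spread between these libraries only. In bulk RNA, fewer cells of a type and less RNA per cell cannot be told apart.

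**Figure D1:**
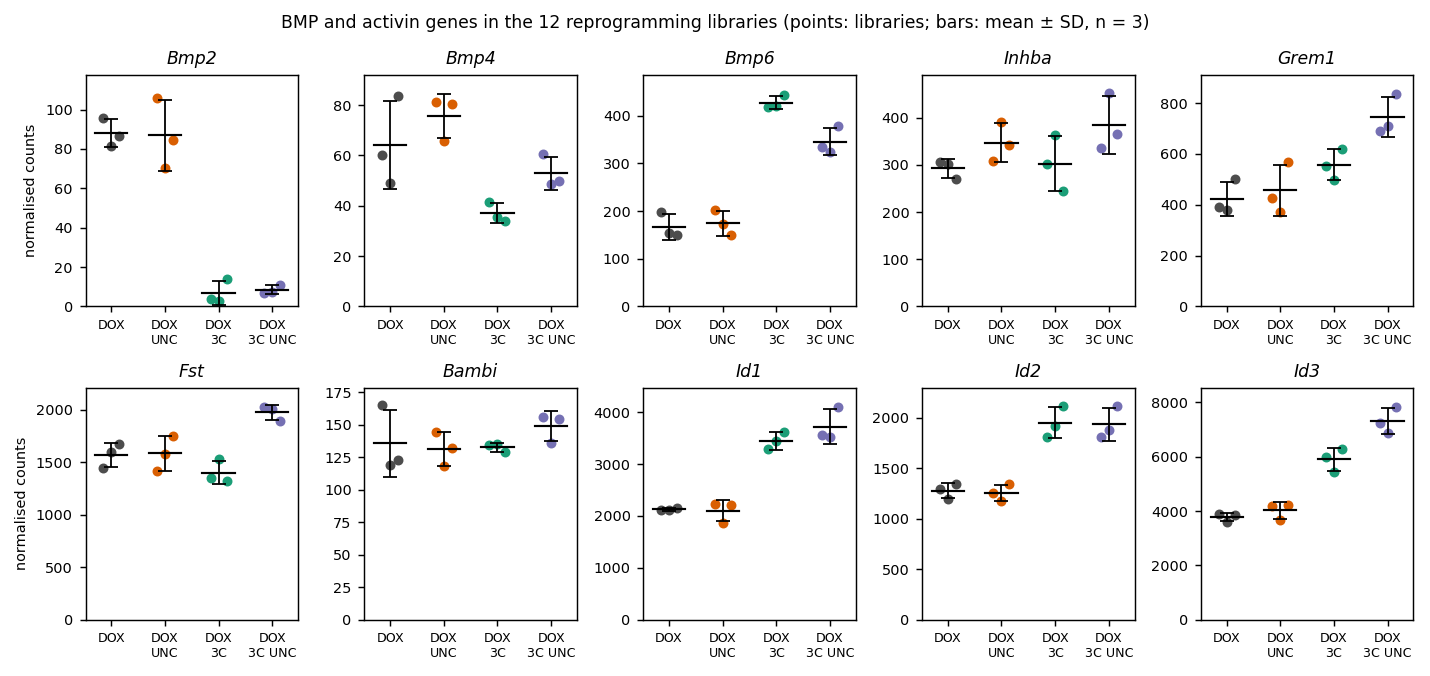
Level of each gene in normalised counts (vertical axes start at 0) in the 12 reprogramming libraries, by treatment. Points are libraries and bars are means ± SD (n = 3). Bmp2 lies between 2.96 and 13.9 in the 6 libraries with 3C and between 70.1 and 106 in the 6 without it, while Bmp6, Id1, Id2 and Id3 lie higher with 3C than without it.

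With 3C added to DOX, all 3 ID genes and Bmp6 rose, Bmp2 fell to a small fraction of its level, and Bmp4 fell. Grem1 rose too, and the tests for Inhba, Fst and Bambi did not pass. In all, 5 of the 10 members rose and 2 fell at an adjusted p below 0.05 (limma on log2(value + 1), n = 3 libraries per group). Of the 16138 genes tested, 49.4% were called in this comparison, 24.7% upward and 24.7% downward, so a share of 7 in 10 has to be read against a background in which nearly every other gene is called. The median log2 fold change was 0.22 over the members and 0.02 over all genes. All 10 passed the filter on low values (10 or more normalised counts in 3 or more libraries). Bmp2 passed it only because of the groups without 3C, where it is high, so the filter bore on its direction in both comparisons of 3C.

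Bmp2, a ligand of the BMP2/4 subfamily, stood at 95.6, 81.7 and 86.4 normalised counts in DOX (78, 68 and 59 reads). It stood at 3.56, 2.96 and 13.9 in DOX with 3C (3, 4 and 18 reads). The groups lay far apart, and replicate 3 held most of the reads left with 3C. Its log2 fold change was −3.78 ± 0.38 (SE; adjusted p = 1.85e-07). From the summed reads, 205 against 25, the level per read counted was 11.9-fold lower (95% interval 7.81 to 18.8, counting error only). Bmp4, the closest relative of Bmp2, stood at 60.1, 49.2 and 83.5 in DOX and at 41.5, 35.5 and 34.0 with 3C. These ranges did not overlap (−0.75 ± 0.20, adjusted p = 0.00392). Bmp6, a ligand of another BMP subfamily, went the other way, from 197, 154 and 149 to 419, 419.9 and 444. The 3 libraries with 3C all lay well above the others (1.36 ± 0.12, adjusted p = 3.58e-08).

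Id1 stood at 2113, 2117 and 2155 normalised counts in DOX and at 3284, 3447 and 3622 with 3C. Its replicates in DOX were nearly equal, and no library with 3C came near them (log2 fold change 0.70 ± 0.07, adjusted p = 2.08e-07). Id2 stood at 1292, 1201 and 1343 in DOX and at 1814, 1922 and 2116 with 3C (0.61 ± 0.07, adjusted p = 1.70e-06). Id3 stood at 3886, 3615 and 3861 in DOX and at 5984, 5436 and 6279 with 3C (0.64 ± 0.07, adjusted p = 3.46e-07). The 3 genes, which encode closely related inhibitors of basic helix-loop-helix factors, thus rose 1.62-fold, 1.52-fold and 1.56-fold on the log2(value + 1) scale, and for none did the groups overlap.

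Grem1, which encodes the BMP trap gremlin 1, stood at 389.9, 379 and 499 in DOX and at 553, 499 and 621 with 3C. The lowest library with 3C lay just under the highest without it (0.40 ± 0.13, adjusted p = 0.0186), and the call was lost without replicate 1 or 2 of DOX or replicate 3 of DOX with 3C (adjusted p = 0.0717, 0.0823 and 0.0886). Fst, the follistatin gene, stood at 1442, 1596 and 1672 in DOX and at 1356, 1529 and 1322 with 3C (−0.16 ± 0.08, adjusted p = 0.0876). With replicate number as a block its adjusted p was 0.0427, and it was 0.0363 without replicate 1 of DOX and 0.0298 without replicate 2 of DOX with 3C. Inhba, the subunit of activin A, stood at 305, 303 and 269 against 301, 363 and 245 (0.03 ± 0.13, adjusted p = 0.851). The range with 3C enclosed the range without it. Bambi stood at 166, 119 and 123 against 134, 136 and 129 (−0.02 ± 0.13, adjusted p = 0.934), and its highest library was 1 of the DOX group.

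The same addition of 3C was measured in cells that also received UNC, which is a comparison of other libraries. Here 6 members rose and 2 fell, against 47.4% of all tested genes called (23.9% up, 23.5% down), and the median log2 fold change was 0.47 against 0.01 over all genes. Bmp2 stood at 106, 70.1 and 84.8 normalised counts in DOX with UNC and at 6.99, 7.27 and 11.05 once 3C was present (−3.23 ± 0.38, adjusted p = 1.37e-06). By summed reads, 283 against 22, it was 10.1-fold lower (95% interval 6.51 to 16.3). Bmp6 stood at 202, 173 and 149 and then at 335, 324 and 379 (0.99 ± 0.12, adjusted p = 2.05e-06). The 2 sets of libraries were well apart for both ligands. Bmp4 stood at 81.1, 65.8 and 80.3 and then at 60.6, 48.5 and 49.7 (−0.51 ± 0.20, adjusted p = 0.0404). That last call was weak: it was lost with DESeq2 (adjusted p = 0.0789), with no filter on low values (0.0757), and without replicate 1 or 3 of DOX with UNC (0.116 and 0.115) or replicate 2 or 3 of DOX with 3C and UNC (0.114 and 0.105).

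Among the ID genes, Id1 stood at 2225, 1872 and 2207 with DOX and UNC and at 3555, 3515 and 4107 with 3C as well (0.83 ± 0.07, adjusted p = 2.35e-08). Id2 stood at 1254, 1179 and 1342 and then at 1814, 1877 and 2122 (0.62 ± 0.07, adjusted p = 1.38e-06). Id3 stood at 4186, 3673 and 4214 and then at 7226, 6874 and 7842 (0.86 ± 0.07, adjusted p = 7.55e-09). Again no library of one group reached into the other. Both antagonists rose in this setting. Grem1 went from 428, 372 and 569 to 688, 709 and 836 (0.72 ± 0.13, adjusted p = 0.000225). Fst went from 1419, 1585 and 1755 to 2027, 2009.9 and 1898 (0.32 ± 0.08, adjusted p = 0.00195). The groups did not overlap for either. Inhba (309, 390.2 and 343, then 337, 453 and 365) had a log2 fold change of 0.14 (adjusted p = 0.404). Bambi (144, 118 and 132, then 156, 136 and 155) had one of 0.18 (adjusted p = 0.290), and both genes had overlapping groups.

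**Figure D2:**
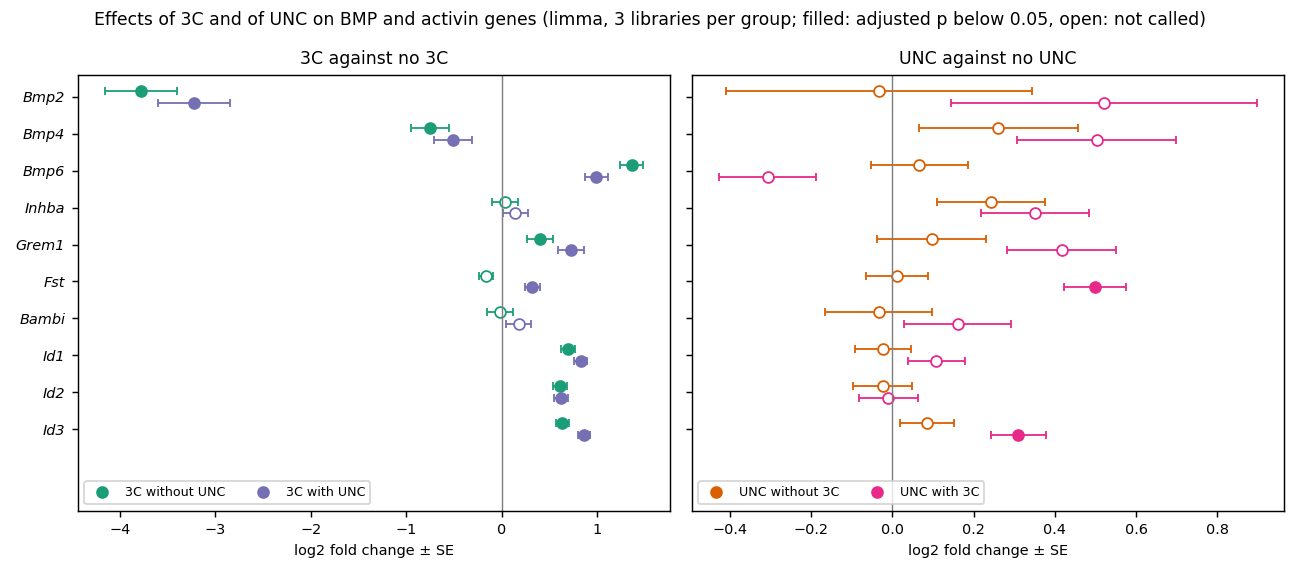
Log2 fold changes (horizontal axes, on the log2(value + 1) scale) with standard errors from limma for 3C against no 3C (left) and UNC against no UNC (right), 3 libraries per group. Filled points had an adjusted p below 0.05; Bmp2 lies at −3.78 and −3.23 in the 3C comparisons, and in the UNC comparisons only Fst (0.50) and Id3 (0.31), both with 3C, are filled. The horizontal scales of the 2 panels differ.

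Without 3C, the test for UNC passed for none of the 10 members, nor did any have an unadjusted p below 0.05. DESeq2, edgeR on the recovered reads and limma with a replicate block called 0 as well. Of all genes tested, 0.607% were called here, 0.508% upward, so 0 of 10 is near the background. The largest estimates were those of Bmp4 at 0.26 ± 0.20 (adjusted p = 0.759) and Inhba at 0.24 ± 0.13 (adjusted p = 0.611, unadjusted p = 0.0836). Inhba was the sole member whose libraries did not overlap, the lowest with UNC (309) standing just above the highest without it (305). How many of all genes had such groups was not counted. The ID genes had log2 fold changes of −0.02 (Id1), −0.02 (Id2) and 0.09 (Id3), and the standard errors of these were 0.07. For Grem1 (0.10), Bmp6 (0.07), Fst (0.01), Bambi (−0.03) and Bmp2 (−0.03) the groups overlapped as well.

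In the presence of 3C, UNC raised Fst and Id3 and lowered no member at the threshold, against 11.6% of all genes called (7.71% up, 3.94% down). The median log2 fold change of the members was 0.33 and that of all genes −0.00. Fst, which DOX with 3C left at 1356, 1529 and 1322, stood at 2027, 2009.9 and 1898 with UNC added. All 3 libraries with UNC lay above every other reprogramming library (0.50 ± 0.08, adjusted p = 0.000384). Id3 went from 5984, 5436 and 6279 to 7226, 6874 and 7842, again without overlap (0.31 ± 0.07, adjusted p = 0.00549). Its relatives did not pass: Id1 had a log2 fold change of 0.11 ± 0.07 (adjusted p = 0.354) and Id2 one of −0.01 ± 0.07 (adjusted p = 0.947). The difference between the 3 ID genes was not tested.

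The test did not pass for Grem1, Bmp4, Bmp6 and Bambi, whose groups did not overlap. The share of all genes without overlap was not counted, so this is a description only. Grem1 went from 553, 499 and 621 to 688, 709 and 836 (0.42 ± 0.13, adjusted p = 0.0524). It was called by edgeR on the recovered reads (0.0426), by DESeq2 (0.0206), with a pseudocount of 5 (0.0492) and with only these 2 groups in the fit (0.0131). Bmp4 went from 41.5, 35.5 and 34.0 to 60.6, 48.5 and 49.7 (0.50 ± 0.20, adjusted p = 0.110). Bmp6 was the 1 member with a clearly negative estimate, from 419, 419.9 and 444 to 335, 324 and 379 (−0.31 ± 0.12, adjusted p = 0.109), and it was called with only these 2 groups in the fit (0.0382) and by edgeR with a replicate block (0.0246). Bambi had 0.16 ± 0.13 (adjusted p = 0.482). Same-numbered libraries of this comparison deviated together (correlations of 0.110 to 0.191), a hint of pairing that the labels do not give. With replicate number as a block 4 members were called: Fst, Id3, Grem1 (adjusted p = 0.000308) and Inhba (0.35, adjusted p = 0.0130, against 0.0978 without the block). Inhba was also called without replicate 2 of DOX with 3C, its highest library in that group (0.49, adjusted p = 0.0337). Without replicate 3 of DOX with 3C, which held 18 of the 25 Bmp2 reads of its group, Bmp2 had 1.12 (adjusted p = 0.0179, against 0.52 ± 0.38 and 0.415 with it), Grem1 was called, and the count of called members was 4.

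Whether UNC acted differently with and without 3C was tested by the interaction. The test passed for none of the 10 members, against 0.062% of all genes (0.0434% upward), and 3 members had an unadjusted p below 0.05. Fst came nearest, with a difference of 0.49 ± 0.11 (adjusted p = 0.0782, unadjusted p = 0.000308). With replicate number as a block Fst was called (adjusted p = 0.00633, and 0.00497 by edgeR with the block), and 413 genes in all were called in place of 10. DESeq2 called Fst too (adjusted p = 0.00852), and edgeR on the recovered reads without the block called no member. Id3 had 0.22 ± 0.09 (adjusted p = 0.379, unadjusted p = 0.0290) and Bmp6 −0.37 ± 0.17 (adjusted p = 0.426, unadjusted p = 0.0411). The estimates for the others ran from 0.01 (Id2) to 0.55 (Bmp2). The 4 comparisons above share groups of libraries, so their values are set side by side and are not independent of each other.

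The order of the 4 groups differed from member to member. For Bmp2 the 2 groups with 3C were lowest and overlapped each other, and the 2 without it were highest and overlapped each other. For Id1 and Id2 the order was reversed, with overlap within each pair and none between the pairs. The levels of Id3 ran from 3787 ± 149.8 (SD) in DOX and 4025 ± 305 in DOX with UNC, which overlapped, to 5899.6 ± 428 with 3C and 7314 ± 489.7 with 3C and UNC, which overlapped with nothing. Bmp6 had its highest level with 3C alone (428 ± 14.2), then with 3C and UNC (346 ± 29.1), then in the 2 overlapping groups without 3C (175 ± 26.3 with UNC and 167 ± 26.6 without). Bmp4 was lowest with 3C (37.0 ± 3.98), and the other 3 groups formed a chain of overlapping neighbours from 52.9 ± 6.65 to 75.7 ± 8.65. Grem1 (745 ± 80.1) and Fst (1978 ± 69.9) were highest with 3C and UNC and overlapped among the other groups. For Inhba (292 to 385) and Bambi (132 to 149) every pair of neighbouring groups overlapped.

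Over the 12 libraries, as a description of points that share 4 treatments, Id1 correlated with Id2 at 0.983 and with Id3 at 0.970, and Id2 with Id3 at 0.937 (Pearson, log2(value + 1)). Bmp2 ran against Bmp6 (−0.918) and against Id1 (−0.893). The genes whose levels ran closest to each member, among 10806 or 10807 genes with a mean of at least 100, were Nfkbia (0.988) for Id1, Fzd6 (0.995) for Id2 and Alas1 (0.992) for Id3, each over 12 libraries. For the ligands they were Mgst3 (0.984) for Bmp2, Ptprd (0.953) for Bmp4, Atp5j2 (0.982) for Bmp6 and Tnn (0.902) for Inhba. For the inhibitors they were Cemip (0.965) for Grem1, Serpinb9 (0.886) for Fst and Gas7 (0.905) for Bambi. The second closest were Gm5424 (0.986), H2afj (0.988), Slc6a8 (0.992), Ngfr (0.984), St3gal5 (0.950), Tst (0.982), Mvk (0.857), BC029722 (0.959), Slc25a36 (0.880) and Plekhh2 (0.841), in the same order.

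Of 76 further genes of these pathways, 53 could be tested in the reprogramming table. With 3C added to DOX, 10 of them rose and 21 fell, 58.5% in all against the background of 49.4%. No test compared the roles, which are given as counts. Of 6 activin and nodal ligand genes 5 rose and 0 fell: Inhbb, the subunit of activin B, went from 38.4 ± 10.7 to 579.5 ± 102 normalised counts (3.91 ± 0.21, adjusted p = 5.08e-11), while its relative Inhba did not pass. Gdf3 (2.85), Nodal (2.20) and Gdf11 (0.56), genes of the same branch, rose as well, Gdf3 and Nodal from single-digit normalised counts. Of the libraries compared here, only those with 3C brought Gdf3 (3.60 to 4.39 in DOX, 30.1 to 41.5 with 3C) and Nodal (3.60 to 9.81, then 26.1 to 35.5) to the filter on low values, so the filter fixed the direction of both. Of 15 extracellular antagonists and modulators 2 rose and 11 fell. The follistatin-like gene Fstl1 fell from 45717 ± 1369 to 15871 ± 568 (−1.53 ± 0.05, adjusted p = 2.57e-13). The BMP and WNT antagonist Sost (−2.85), the DAN family antagonist Nbl1 (−1.99) and the BMP-binding regulator Bmper (−2.27) fell too, whereas Grem1 rose and Fst did not pass.

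Of 11 receptors and co-receptors 2 rose and 3 fell. The type I receptor genes Acvr1 (936 ± 90.7 to 236 ± 13.01; −1.98 ± 0.09) and Acvrl1 (−1.91 ± 0.13) fell, as did the type II receptor gene Bmpr2 (−0.49 ± 0.07). Bmpr1a, a type I receptor gene, rose slightly (0.20 ± 0.06, adjusted p = 0.0142), a call lost without replicate 2 of DOX (0.0525) or replicate 1 of DOX with 3C (0.106). Of 7 SMAD and SMAD ubiquitin ligase genes 0 rose and 4 fell, namely Smurf1 (−0.75), Smad3 (−0.61), Smad2 (−0.39) and Smurf2 (−0.30). The BMP-branch genes Smad1 (−0.08) and Smad5 (0.08), named here outside the naming rule, did not pass. Of 8 further BMP target genes Atoh8 rose (0.79 ± 0.13) and Smad7, an inhibitory SMAD induced by BMP and by TGF-beta (−1.47 ± 0.09), and Id4, another ID gene (−0.86 ± 0.14), fell. Of 3 other BMP ligand genes Gdf7 fell from a low level (14.7 ± 9.47 to 3.05 ± 0.666), and of the 3 E protein genes, whose products ID proteins bind, none passed.

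**Figure D3:**
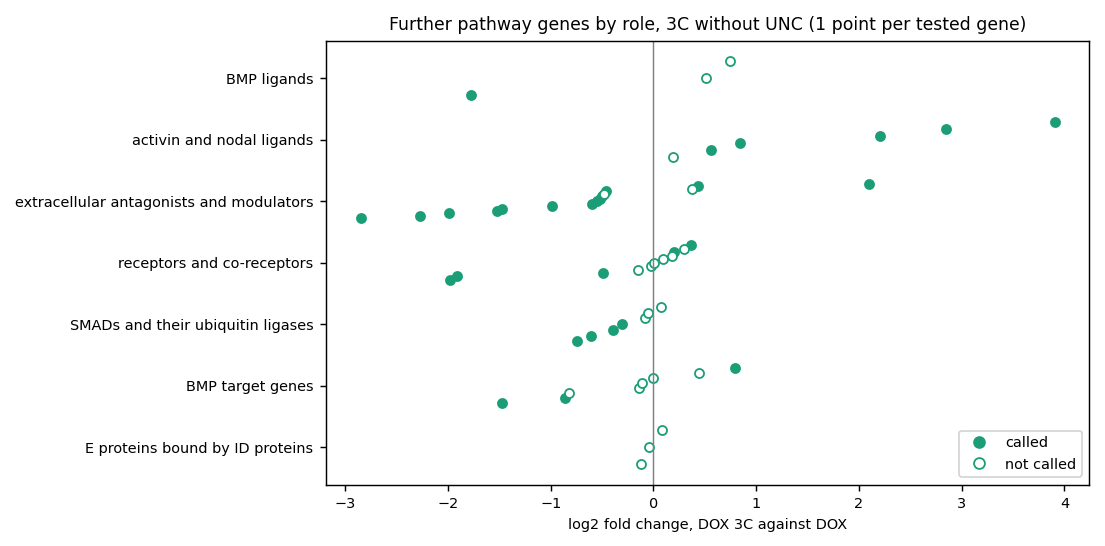
Log2 fold change for 3C added to DOX (horizontal axis, log2(value + 1) scale) of each of the 53 tested further pathway genes, grouped by role, with 1 point per gene. Filled points had an adjusted p below 0.05. Activin and nodal ligands lie to the right, with Inhbb at 3.91, and 11 of 15 extracellular antagonists and modulators lie filled to the left.

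With UNC present, 9 of the 53 rose with 3C and 21 fell, 56.6% in all against 47.4% of all genes (23.9% up, 23.5% down). Log2 fold changes were 4.55 ± 0.21 for Inhbb, −1.42 ± 0.05 for Fstl1, −1.73 ± 0.09 for Acvr1, −1.37 ± 0.09 for Smad7 and 1.43 ± 0.13 for Atoh8. By role, rises and falls were 5 and 0 of 6 activin and nodal ligands, 1 and 10 of 15 antagonists, 2 and 3 of 11 receptors, 0 and 4 of 7 SMAD genes, 1 and 2 of 8 targets and 0 and 1 of 3 BMP ligands. The BMP ligand that fell was Gdf7, whose direction the filter fixed here too. The same holds for Nodal, named here outside the naming rule, at 5.36 to 7.69 in DOX with UNC and 15.8 to 33.1 with 3C as well. Among E protein genes Tcf3 fell (−0.16 ± 0.05, adjusted p = 0.0171), a call lost without replicate 2 of either group (0.0850 and 0.0602). Id4 fell by 0.46 on the log2 scale, with overlapping groups, a call lost without replicate 1 of DOX with 3C and UNC (0.0860) or replicate 3 of DOX with UNC (0.0551).

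UNC added to DOX with 3C raised 10 of the 53 and lowered 0, against 7.71% and 3.94% of all genes. They included Inhbb (579.5 ± 102 to 1273 ± 76.5; 1.15 ± 0.21, adjusted p = 0.00153), the target gene Atoh8 (600.1 ± 27.8 to 1000.5 ± 43.9; 0.74 ± 0.13) and the receptor gene Acvrl1 (0.75 ± 0.13). Of 15 antagonists and modulators 6 rose, among them the procollagen proteases Tll1 (0.66 ± 0.12) and Bmp1 (0.62 ± 0.06), which also cleave the antagonist chordin, and Twsg1 (0.29 ± 0.07). Smad6, an inhibitory SMAD gene, rose by 0.38 ± 0.11 (adjusted p = 0.0382), a call lost with no filter (0.0571) and without replicate 2 or 3 of DOX with 3C (0.200 and 0.0651) or replicate 1 or 3 of DOX with 3C and UNC (0.0544 and 0.174). Without replicate 2 of DOX with 3C or replicate 3 of DOX with 3C and UNC the counts were 6 of 53 and 3 of 15, and Twsg1 was lost in both (0.0721 and 0.0811) and without replicate 3 of DOX with 3C (0.0563). With a replicate block the counts were 16 of 53 and 8 of 15, and 2871 of the 16138 genes in all were called. Without 3C, UNC raised Tll1 (0.84 ± 0.12, adjusted p = 0.00347), Gdf3 (1.29 ± 0.27, 0.0336) and Bmp1 (0.27 ± 0.06, 0.0366), and 0 fell. Gdf3 rested on few reads, 9 in all in DOX and 35 in DOX with UNC. It was not called by edgeR on the recovered reads (0.157) or with a pseudocount of 5 (0.0849). With no filter, neither Gdf3 (0.111) nor Bmp1 (0.0638) was called. Of the 3, only Tll1 was still called without any 1 of DOX replicates 1, 2 and 3 or DOX with UNC replicates 2 and 3.

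Markers of cell types moved in the same comparisons. The summed level of 10 fibroblast markers ran from 147578 to 159845 normalised counts in DOX, from 177976 to 187900 with UNC, from 62474 to 72130 with 3C, and from 100099 to 104918 with 3C and UNC. Of these 10 markers 1 rose and 5 fell with 3C, and 8 rose with UNC in the presence of 3C. Those that fell with 3C were the matrix genes Col1a1, Col1a2, Col3a1, Fn1 and Postn, and Twist1 rose (1.58). Thy1 (−0.14), Pdgfra (−0.04), Pdgfrb (−0.00) and Prrx1 (−0.09) did not pass. Col1a2 weighed most in the sum, with a mean of 82491 in DOX and 23912 with 3C. The sum of 5 smooth muscle markers was 38777 to 45178 in DOX and 5554 to 6858 with 3C, and all 5 fell; with UNC added to 3C it was 10955 to 14673, and all 5 rose. With UNC in the absence of 3C, 3 of these 5 rose. Of 6 epithelial markers 3 rose and 2 fell with 3C. Of 6 endothelial markers only Tek and Cdh5 could be tested, and both fell (median log2 fold change −1.69). Cdh5 had 24 reads in DOX and 3 with 3C. The endothelial markers not tested, Pecam1, Kdr, Emcn and Cldn5, were below 10 normalised counts in all 12 libraries. Of the epithelial risers, Epcam and Cldn4 reached 10 normalised counts only in libraries with 3C, Cldn4 only in those that also had UNC. Cldn4 had 1 read in DOX and 21 with 3C. Among the fallers, the epithelial Krt8 and the endothelial Cdh5 reached 10 only in libraries without 3C. The filter on low values thus bore on the directions of these genes. The pluripotency markers Pou5f1 and Sox2, also reprogramming factors of the inducible alleles, fell with 3C (−0.51 and −0.64) and with UNC added to 3C (−0.53 and −0.39). No fibroblast or smooth muscle marker was at 0 in any of the 12 libraries. The part of these shifts in the changes of Bmp2, Bmp4, Bmp6, Grem1, Fst and the ID genes was not tested.

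In iPSC, the members that rose with early UNC were Inhba, Grem1 and Id3, and 0 fell (edgeR quasi-likelihood test, n = 3 libraries per group). Of the 17987 genes tested 1.31% were called, 1.27% upward and 0.0389% downward. The median log2 fold change was 0.07 over the members and −0.01 over all genes. Inhba, the activin A subunit, stood at 47.1, 50.5 and 39.8 CPM in the DMSO libraries and at 74.4, 76.5 and 71.9 in the UNC libraries. The gap between the groups was wider than the spread within either (0.71 ± 0.08, adjusted p = 0.00275), and the call held without any 1 library. Grem1 stood at 11.9, 13.4 and 13.4 against 19.8, 20.8 and 17.8 (0.61 ± 0.09, adjusted p = 0.00908), and was not called without UNC replicate 1 (0.0650) or 2 (0.0639). Id3 stood at 31.2, 35.6 and 27.3 against 41.7, 43.1 and 47.6 (0.50 ± 0.10, adjusted p = 0.0287). No library overlapped, yet the call was lost without DMSO replicate 1 (0.0799) and without UNC replicate 1, 2 or 3 (0.0883, 0.105 and 0.0834). Without UNC replicate 1 or 2 the count was 1 member, Inhba, in place of 3.

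**Figure D4:**
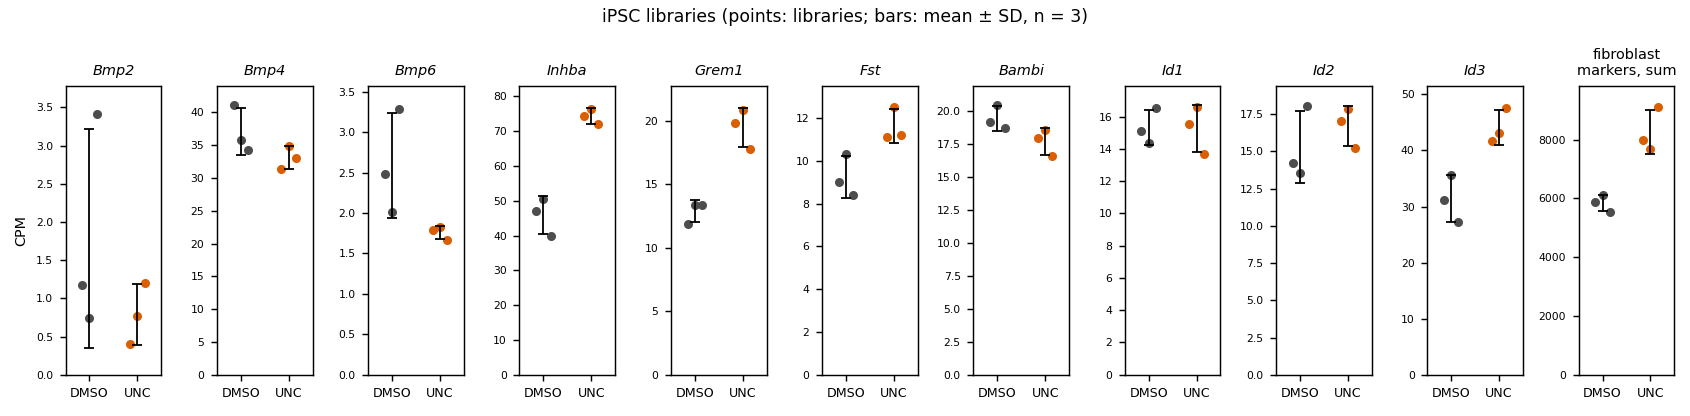
Level in CPM (vertical axes start at 0) of the 10 genes and the sum of 10 fibroblast markers in the 6 iPSC libraries, by early treatment with DMSO or UNC. Points are libraries and bars are means ± SD (n = 3). Inhba (71.9 to 76.5 against 39.8 to 50.5), Grem1, Id3 and the fibroblast sum (7683 to 9099 against 5546 to 6102) are higher in the UNC libraries. Fn1 makes up most of the fibroblast sum.

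The other 2 ID genes overlapped between both kinds of iPSC: Id1 stood at 15.1, 14.4 and 16.5 CPM against 15.6, 16.6 and 13.7 (0.01 ± 0.10, adjusted p = 0.987), and Id2 at 14.2, 13.6 and 18.0 against 17.1, 17.9 and 15.2 (0.14 ± 0.12, adjusted p = 0.668). Fst stood at 9.03, 10.3 and 8.42 against 11.1, 12.5 and 11.2, without overlap (0.34 ± 0.11, adjusted p = 0.245). Bmp6 stood at 2.48, 2.01 and 3.29 against 1.79, 1.83 and 1.67, also without overlap (−0.54 ± 0.22, adjusted p = 0.359). Here too the share of all genes without overlap was not counted. Bambi, whose product damps both branches, stood at 19.2, 20.5 and 18.7 against 18.0, 18.6 and 16.6 (−0.13 ± 0.08, adjusted p = 0.580). Bmp4, the ligand known for self-renewal, stood at 41.1, 35.8 and 34.2 against 31.4, 34.9 and 33.0 (−0.15 ± 0.08, adjusted p = 0.492). Bmp2 was scarce and variable, at 1.18, 0.748 and 3.42 against 0.406, 0.771 and 1.204 (−1.16 ± 0.55, adjusted p = 0.420). With no filter on low counts its adjusted p was 0.00513, although the groups overlapped.

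Among 55 further pathway genes tested in iPSC 7 rose with UNC and 0 fell, against 1.27% and 0.0389% of all genes. Of 13 antagonists and modulators 6 rose, among them Nbl1 (10.4 ± 1.53 to 17.0 ± 0.0368 CPM; 0.71 ± 0.11, adjusted p = 0.00953), Fstl1 (0.39 ± 0.07) and Tll1 (0.82 ± 0.15). The seventh was the target gene Atoh8 (1.41 ± 0.171 to 3.07 ± 0.625 CPM), a call lost on leaving out any 1 library other than UNC replicate 3. These counts rested on single libraries: without UNC replicate 1 or 2 they were 0 of 55 and 0 of 13, and without DMSO replicate 1 they were 2 of each. Without DMSO replicate 2, 4 of 55 rose. Fibroblast marker sums were 5546 to 6102 CPM in the DMSO libraries and 7683 to 9099 in the UNC libraries, with 8 of 10 markers rising, and all 5 smooth muscle markers rose (343 to 422 against 598 to 642). Fn1 alone averaged 4260 CPM in the DMSO and 5703 in the UNC libraries, most of each fibroblast sum, and 1686 CPM in DOX. The fibroblast markers that did not pass were Twist1 (0.03) and Pdgfra (0.08). The 10 pluripotency markers, summing to 5569 to 5818 against 5193 to 5706, had 0 calls by the same test. The part of the fibroblast and smooth muscle signal in the rise of Inhba, Grem1 and Id3 was not tested.

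Levels in the 2 tables came from separate processing and are given side by side without a test. In CPM, Id3 averaged 244 in DOX and 31.4 in DMSO iPSC, Id1 137 and 15.3, and Id2 82.4 and 15.3. Fst averaged 101 and 9.25, Grem1 27.2 and 12.9, and Bmp6 10.8 and 2.59. The values were the other way round for Bmp4, 4.14 in DOX and 37.0 in DMSO iPSC, for Inhba, 18.8 and 45.8, and for Bambi, 8.75 and 19.5. Bmp2 averaged 5.66 and 1.78.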

How the data were processed

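RNA was sequenced from 12 reprogramming and 6 iPSC libraries. The build was mm10 and the tools were HTSeq 0.5.4p3, TopHat2 2.1.0, DESeq of unstated version and SAMtools 1.8, per the submitters' processing notes; settings and strand handling are not given in the sources used here. The reprogramming values were deposited as signal: the authors had divided each library's reads by 1 factor, and whole reads were recovered for 100% of values within 0.01 read. The iPSC values are counts as deposited. The reprogramming table has 2 more columns that fit no listed sample, left out here. The iPSC columns were matched through the descriptions, and where titles and descriptions disagreed on a DMSO replicate number the title's was used. Symbols were found for 54042 of 54109 and 54723 of 54838 identifiers.

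Reprogramming values were tested as log2(value + 1) with limma 3.58.1 (trend, empirical Bayes, R 4.3.3) in 1 fit of 12 libraries, over genes at 10 or more in 3 or more libraries. For the iPSC counts the test was edgeR 4.0.16 with TMM scaling (quasi-likelihood, filterByExpr). P-values were adjusted over all genes tested (Benjamini-Hochberg). The standard error for iPSC is the fold change over the square root of its F statistic. Alternatives were DESeq2 1.42.0, edgeR on recovered reads, other scalings, filters and pseudocounts, a replicate block and leaving out each library. The fits were checked on simulated data.

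Same-numbered libraries deviated together, a hint of pairing from the data and not the labels. Correlations were 0.110 to 0.191 for UNC with 3C, 0.106 to 0.156 for 3C without UNC and 0.155 to 0.205 for 3C with UNC (3 pairs each). The main fits did not pair libraries, and replicate number entered only as a block among the alternatives. The members, pathway lists and marker lists were chosen with earlier results of these data known. All members were named; further pathway genes were named up to 4 called per role list and comparison, by smallest p, and for likeness the 2 genes with the highest correlation. 1 gene that the naming rule gives is not reported here.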

Additional observations from a re-analysis of the deposited data

How the results depend on the processing

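Of the 20 called member results, 16 kept their call and direction under every alternative run, and over 288 alternative values 273 kept the call, 15 lost it and 0 reversed. The count of members called for UNC with 3C, 2 as reported, was 4 with a replicate block, 5 with edgeR and a replicate block (chosen after seeing the data), 4 with only the 2 groups in the fit, and 2 to 4 on leaving out 1 library. For the interaction, 0 as reported, it was 1 with DESeq2 (Fst), 1 with a replicate block (Fst, adjusted p = 0.00633) and 2 with edgeR and a replicate block (Fst and Id3). In iPSC, 3 as reported, it was 1 to 3 on leaving out 1 library, and 3 with a replicate block by title or by description number. For UNC without 3C, where same-numbered pairs correlated at 0.0940 to 0.223, the replicate block gave 0, as reported. Over all 4 reprogramming groups, 18 same-numbered pairs correlated at 0.0595 to 0.223 and 36 differently numbered pairs at −0.194 to −0.0103. In iPSC, pairs with the same title number correlated at 0.0490 to 0.109. In limma the block changed no other member's call than those given here and in the report. Counts over all genes moved by over 1.5 times for UNC without 3C (98, but 409 with the block, 172 with DESeq2 and 19 to 144 on leaving out 1 library), UNC with 3C (1880, but 2871 with the block and 1039 to 1917 without 1 library), the interaction (10, but 413 with the block, 156 with DESeq2 and 0 to 70 without 1 library) and iPSC (236, but 365 with DESeq2, 823 with no filter, 407 with a block by title number and 85 to 216 without 1 library). Of the further pathway genes, 7 rose in iPSC but 3 with a block by description number, and 3 for UNC without 3C but 5 with the block and 1 with no filter. The cause of these differences between settings was not tested.

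Estimates that changed sign were all of members not called. On leaving out 1 library, log2 fold changes for UNC without 3C ran from −0.18 to 0.11 for Bmp2, −0.043 to 0.19 for Bmp6, −0.074 to 0.23 for Grem1, −0.063 to 0.090 for Fst, −0.12 to 0.12 for Bambi, −0.066 to 0.058 for Id1 and −0.071 to 0.022 for Id2. They ran from −0.078 to 0.050 for Id2 for UNC with 3C, from −0.10 to 0.18 for Inhba and −0.10 to 0.13 for Bambi for 3C without UNC, and from −0.052 to 0.087 for Id1 in iPSC. For the interaction they ran from −0.036 to 0.25 for Inhba and −0.054 to 0.073 for Id2, and Id2 was −0.00774 with TMM scaling. Depth limits Bmp2 most, with 22 to 25 reads per group in the presence of 3C.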
